A study of Drosophila melanogaster with 6 samples.

Results

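The Imd pathway is the branch of fly immunity that answers the peptidoglycan of Gram-negative bacteria. In textbook accounts, receptors of the peptidoglycan recognition protein (PGRP) family bind peptidoglycan and gather the adaptor Imd, the adaptor Fadd and the caspase Dredd. The kinase Tak1, with its partner Tab2, then activates an IκB kinase made of kenny (key) and ird5, and the NF-κB factor Relish (Rel) is cut and enters the nucleus, where akirin helps it to switch on antibacterial peptide genes. Relish also switches on pirk, which acts back on the receptors as a brake. The 10 genes followed here, imd, Fadd, Dredd, Tak1, Tab2, key, ird5, Rel, akirin and pirk, are this signalling chain, and they were chosen by name for their place in it, with earlier results of these data known. By symbol, 9 of the 10 were found in the deposited table. The remaining gene, ird5, stands there as IKKbeta (FBgn0024222), which the RefSeq gene table gives as the current name of ird5, and it was included under that name. Each of the 10 is measured by a single probe set, out of 18769 probe sets tested, which carry 13244 gene labels.

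The study compared the old age group, flies of 45 days, with the young age group, flies of 3 days, on Affymetrix Drosophila arrays with 3 arrays per group. All flies were of the strain y(1), w67c23(2) and were cultured at 20 °C, and each sample was whole-organism RNA that the labels describe as a pool of 100 females and 100 males. The paper speaks of female flies in its results. Of 6 genes of the testis and the male accessory gland looked at in the arrays, 5 (Acp70A, Acp26Aa, Mst84Da, Mst87F and dj) were under log2 4 in all 6 samples, in the range where probe sets without signal lie, and the sixth, bol, was lower in old than in young samples at 7.46 to 7.67 against 8.11 to 8.60. These are values of its brightest probe set, with a log2 difference of -0.82. A dimmer one, at 3.69 to 3.89 in old samples, had a difference of -1.01 (FDR 0.0309, limma) and alone met the criteria given below. Values are log2 values normalized by the authors with GCRMA. Samples are named Old4 to Old6 and Young1 to Young3 after the columns of the table. The labels number the old samples otherwise, so a column cannot be tied to 1 labelled old sample. Array medians differed by 0.02 at most, but they lay at 2.45 to 2.47, in the range without signal. They therefore do not show whether the brighter probe sets are on 1 scale. Old6 stood far below the other old samples in the eggshell genes Cp36 and Cp38, which are given with the ovary genes. In whole flies, fewer cells of a type and less RNA per cell cannot be told apart.

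In old age flies, pirk and key were upregulated by the criteria of the study, a fold difference above 2 with p under 0.05 and an FDR under 0.15 over all probe sets in limma. Rel rose almost exactly as much as key and missed the fold criterion alone. With an FDR under 0.05 and no fold criterion, 4 of the 10 genes rose (key, Rel, ird5 and Fadd) and none fell. The word "rose" is used below for genes that met either rule. Dredd, Tak1 and akirin met neither rule, with log2 differences between 0.05 and 0.07, and imd was too dim to read.

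These counts have to be set against the rest of the array. By the 3 criteria, 2 of the 10 genes were called, both higher in the old age group. Over all probe sets 6.41% were called, 3.45% as higher in old. At an FDR under 0.05 the count was 4 of 10, all higher, against 12.7% of all probe sets and 6.91% as higher. All of the 10 genes but imd had a value of log2 6 or more, and among the 8003 probe sets with such a value 12.9% were called by the 3 criteria (6.83% as higher) and 27.3% at an FDR under 0.05 (14.8% as higher). The groups did not overlap in 6 of the 10 genes, all higher in old. This held for 28.7% of all probe sets (16.1% as higher) and for 54.7% of those with a value of log2 6 or more (30.7% as higher). The median log2 difference of the 10 genes was 0.36, with 9 higher and 1 lower in old samples, against 8.17e-04 over all probe sets and 0.04 over those with a value of log2 6 or more. Counted in either direction, 6 of 10 is thus close to the 54.7% among probe sets of that brightness. All 6 lay on the side of the old age group, against 30.7% as higher. The 10 include imd, which is dimmer and whose groups overlapped, so the share among the brighter genes of the 10 is larger. Whether these shares differ was not tested.

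**Figure D1:**
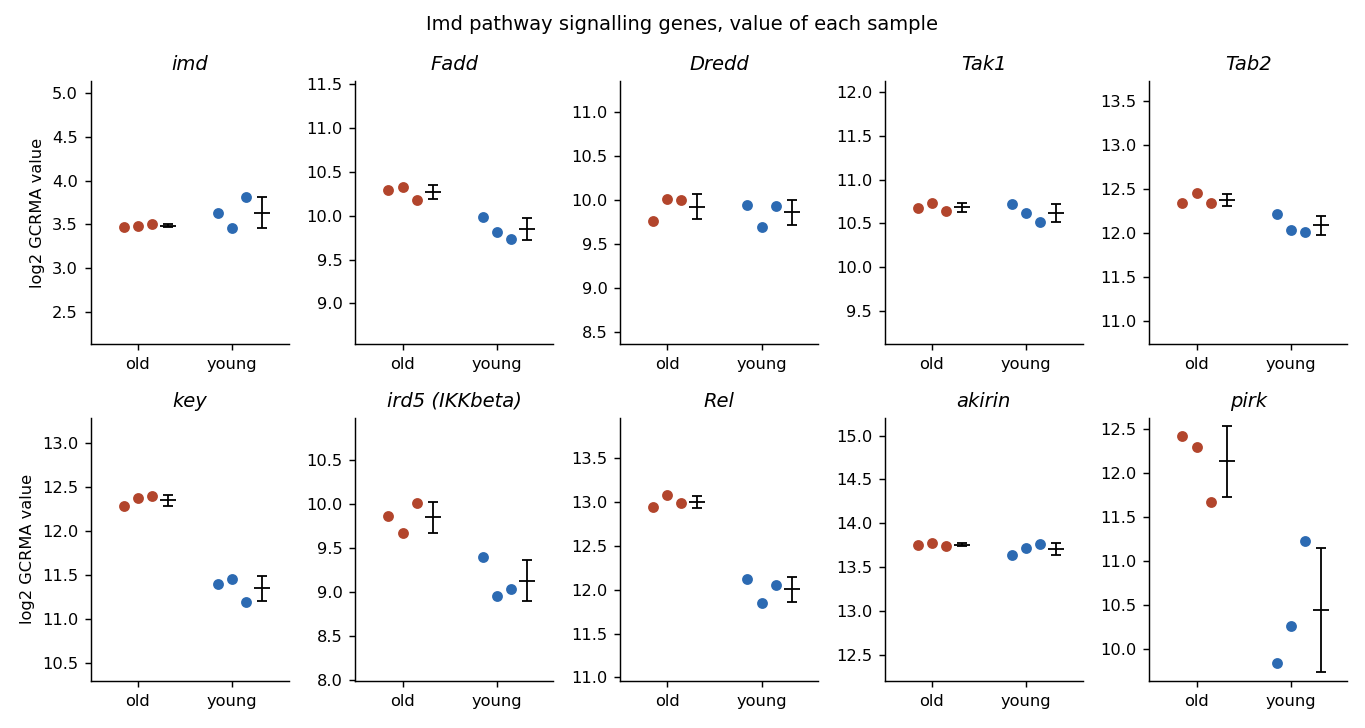
Log2 GCRMA values of the 10 Imd pathway signalling genes in each sample, with old samples left of young samples; every panel spans 3 log2 units, points are samples, and the bar to the right of each group is the mean with its SD (n = 3). For key, Rel, ird5, Fadd, Tab2 and pirk the old samples all lie above the young samples, while for imd, Dredd, Tak1 and akirin the groups overlap.

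The pathway starts at the adaptor Imd, a death-domain protein that joins the receptors to the kinase arm. It read 3.47, 3.49 and 3.50 in Old4, Old5 and Old6, against 3.63, 3.46 and 3.81 in Young1, Young2 and Young3. All of these values are under log2 4, where 56.0% of all values on the arrays lie, so they set no level for imd in either age group. The log2 difference was -0.15 with a 95% confidence interval of -0.39 to 0.10 (FDR 0.510, limma), and the groups overlapped.

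Fadd is the adaptor through which Imd recruits Dredd. It stood at 10.29, 10.33 and 10.18 in Old4, Old5 and Old6, and at 9.99, 9.81 and 9.74 in Young1, Young2 and Young3. Every old sample was above every young sample, though the gap between the nearest samples was only 0.19. The rise was 0.42 on the log2 scale with an SE of 0.08 (95% confidence interval 0.22 to 0.63, FDR 0.0324, limma), a fold difference of 1.34.

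Dredd, the caspase that cleaves Imd and Relish, was at 9.76, 10.02 and 10.00 in Old4, Old5 and Old6, and at 9.95, 9.70 and 9.93 in Young1, Young2 and Young3. The groups overlapped, although Old5 and Old6 lay above every young sample and Young2 below every old sample. The log2 difference was 0.07 with a 95% confidence interval of -0.21 to 0.34 (FDR 1, limma), so a 2-fold change in either direction lies outside the interval. The products of Fadd and Dredd bind each other. The log2 value of Fadd minus that of Dredd, taken within each sample, was 0.53, 0.31 and 0.18 in the old samples and 0.04, 0.11 and -0.19 in the young samples, with no overlap between the groups. This restates the unequal log2 differences of Fadd (0.42) and Dredd (0.07) and is no separate result. How often gene pairs of this brightness separate in the same way was not looked at.

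Tak1, the kinase that passes the signal to the IκB kinase and also to the JNK branch, was at 10.67, 10.74 and 10.64 in Old4, Old5 and Old6, against 10.72, 10.62 and 10.51 in Young1, Young2 and Young3. The groups overlapped, and the log2 difference of 0.06 had a 95% confidence interval of -0.09 to 0.22 (FDR 0.799, limma). Tab2, the ubiquitin-binding partner of Tak1, was at 12.34, 12.45 and 12.34 in the old samples and at 12.21, 12.03 and 12.01 in the young samples. Its groups did not overlap, but the log2 difference of 0.29 (95% confidence interval 0.11 to 0.47) had an FDR of 0.0612 in limma and met neither rule. Within samples, Tab2 minus Tak1 was 1.69 ± 0.02 in old and 1.47 ± 0.05 in young flies (SD, n = 3), again without overlap. This too restates the log2 differences of Tab2 (0.29) and Tak1 (0.06). Of other pairs taken, Rel minus akirin did not overlap between the groups either. The values of pirk minus Rel, pirk minus key and Rel minus ird5 overlapped.

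Next to pirk, the largest differences were at the IκB kinase and its substrate. The regulatory subunit key (FBgn0041205), the fly counterpart of NEMO, read 12.28, 12.38 and 12.40 in Old4, Old5 and Old6, against 11.39, 11.46 and 11.19 in Young1, Young2 and Young3. The gap between the nearest old and young samples was 0.82, far more than the range within either group. The rise was 1.004 with an SE of 0.08 (95% confidence interval 0.79 to 1.21, FDR 0.00366, limma), a fold difference of 2.01. Of all probe sets, 7.1% had a larger difference in either direction. This share counts 10176 probe sets that were under log2 4 in all samples. The median absolute log2 difference was 0.02 over all probe sets and 0.21 over those with a value of log2 6 or more.

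The catalytic subunit ird5 was at 9.87, 9.66 and 10.02 in Old4, Old5 and Old6, and at 9.39, 8.95 and 9.03 in Young1, Young2 and Young3. The groups did not overlap, with a gap of 0.27. The rise was 0.72 with an SE of 0.15 (95% confidence interval 0.32 to 1.12), a fold difference of 1.65, and the FDR of 0.0473 in limma was just under 0.05. The fold difference of ird5 was smaller than that of key, but key minus ird5 within samples was 2.42, 2.71 and 2.38 in old flies and 1.999, 2.51 and 2.16 in young flies, and these values overlapped.

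Rel (FBgn0014018), the NF-κB factor of the pathway, was at 12.94, 13.07 and 12.99 in Old4, Old5 and Old6, against 12.12, 11.85 and 12.05 in Young1, Young2 and Young3. The old samples lay within 0.13 of each other, and 0.82 separated the lowest of them from the highest young sample. The rise was 0.996 with an SE of 0.08 (95% confidence interval 0.78 to 1.21, FDR 0.00394, limma). Its fold difference was 1.99, so Rel fell short of the fold criterion that key passed at 2.01. The value of Rel minus key within samples was 0.65 ± 0.05 in old and 0.66 ± 0.24 in young flies (SD, n = 3), a shift of -0.01. The different calls of these genes thus rest on a threshold between nearly equal values. Akirin, a nuclear cofactor that acts with Relish at a subset of its targets, was at 13.76, 13.77 and 13.74 in the old samples and 13.63, 13.72 and 13.77 in the young samples. Its groups overlapped, and the log2 difference of 0.05 (95% confidence interval -0.04 to 0.15, FDR 0.576, limma) was the most closely bounded of the 10. Its probe set carries the suffix _s_at, which marks probes that may match more than 1 transcript.

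**Figure D2:**
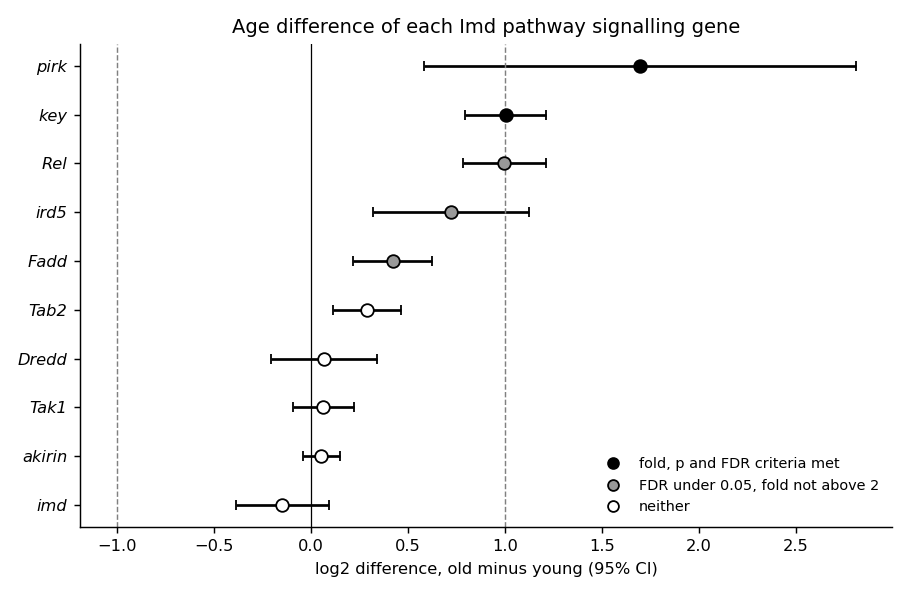
Log2 difference, old minus young, of each Imd pathway signalling gene with its 95% confidence interval from limma; dashed lines mark a 2-fold difference. Filled points (pirk and key) met the fold, p and FDR criteria, grey points (Rel, ird5 and Fadd) had an FDR under 0.05 without a fold above 2, and open points met neither.

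The brake pirk (FBgn0034647) had both the largest rise and the widest spread. It was at 12.43, 12.30 and 11.68 in Old4, Old5 and Old6, against 9.84, 10.26 and 11.22 in Young1, Young2 and Young3. The groups did not overlap, but the lowest old sample, Old6, was only 0.45 above the highest young sample, Young3. The mean was 12.14 ± 0.40 in old and 10.44 ± 0.71 in young flies (SD, n = 3), a rise of 1.69 with an SE of 0.43 (95% confidence interval 0.58 to 2.81), a fold difference of 3.24, and the FDR was 0.0762 in limma. The call of pirk was lost without Old4 (FDR 0.202), without Old5 (FDR 0.219) and without Young2 (FDR 0.202), while its fold difference stayed between 2.63 and 4.25 whichever sample was left out. Its call was also lost with all array values under log2 4 set to 4, or under log2 6 set to 6 (FDR 0.151 and 0.161, limma). These floors change no value of pirk itself.

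The young samples also differed from each other in the genes that Relish is known to switch on, and not in the same order as pirk. The median of 13 antibacterial peptide probe sets was 11.46, 12.42 and 11.81 in Old4, Old5 and Old6, and 7.23, 3.68 and 9.71 in Young1, Young2 and Young3. Young3 was the highest of the young samples both for this median and for pirk, but the lowest was Young2 for the peptides and Young1 for pirk. Rel was lowest in Young2, whereas key was lowest in Young3. Rel and key spanned 0.27 each among the young samples, pirk 1.38 and the peptide median 6.02. With 3 samples in a group, these orders are a description only.

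**Figure D3:**
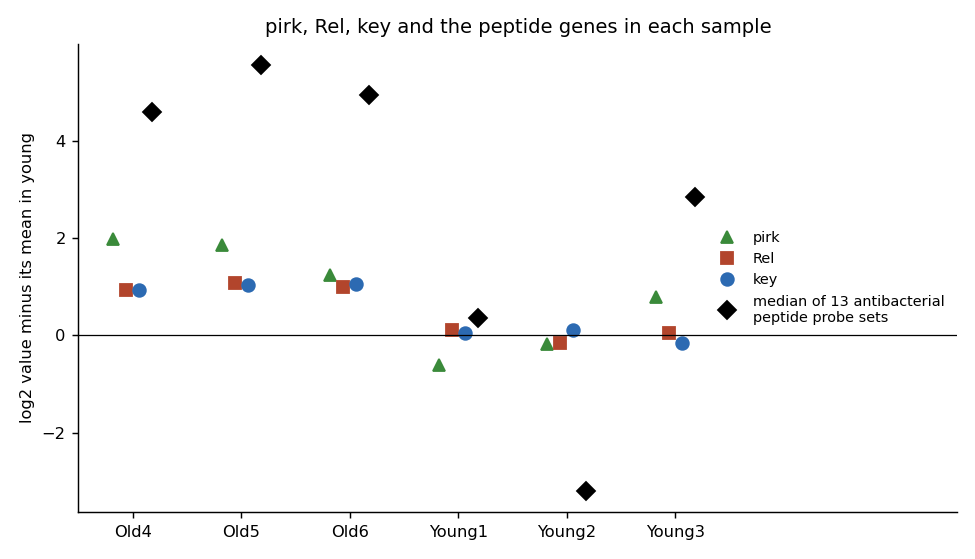
Log2 values of pirk, Rel and key and the median of 13 antibacterial peptide probe sets in each sample, each shown as the difference from its own mean over the 3 young samples. On this scale Rel and key lie near each other in all 6 samples, although their order differs among the young samples. The values of pirk and, far more, the peptide median spread among the young samples.

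The counts of every list below stand against 6.41% of all probe sets called by the 3 criteria. Among those with a value of log2 6 or more the share was 12.9%. Upstream of the 10 genes, 4 of 6 PGRP receptors and receptor-like genes were called, all higher in old age flies, with a median log2 difference of 2.46. They are PGRP-SD, a secreted PGRP that helps to present peptidoglycan (6.18), PGRP-LF, a membrane PGRP that dampens PGRP-LC (3.20), PGRP-LA (2.62) and PGRP-LC, the main receptor at the cell surface (2.29). PGRP-LC was low in both groups, at 5.72, 5.45 and 5.82 in Old4, Old5 and Old6 against 3.49, 3.12 and 3.51 in Young1, Young2 and Young3, so the size of its difference depends on how values under log2 4 are treated, and it was 1.67 with such values set to 4. PGRP-SD was at 9.89, 9.93 and 10.12 in the old samples and at 2.42, 2.22 and 6.77 in the young samples, where Young3 stood apart and the other young samples were in the range without signal. Its difference was 5.06 with values under log2 4 set to 4 and 7.66 without Young3, and its call was lost without Old5 or Old6 (FDR 0.155 and 0.165, limma). PGRP-LE, the receptor inside the cell, had a log2 difference of 0.19 and met neither rule (FDR 0.397, limma). The probe set of PGRP-LD, shared with Pmi, was near 2.1 in all samples and carries no level. Among the PGRP amidases, which cut peptidoglycan and so limit the signal, 3 of 5 probe sets were called higher and 1 lower. The remaining probe set, that of PGRP-SB2, was near 2.1 in all samples and carries no level. PGRP-LB (3.17), PGRP-SB1 (2.79) and PGRP-SC2 (2.26) rose, and the probe set shared by PGRP-SC1a and PGRP-SC1b was the one called lower. That probe set was at 2.46, 1.76 and 2.46 in Old4, Old5 and Old6, all in the range without signal, against 5.15, 6.65 and 3.30 in Young1, Young2 and Young3. With values under log2 4 set to 4 its call was lost (FDR 0.419, limma), and it was lost too with any sample but Young3 left out. The call of PGRP-SC2 was lost without Young2, Old4 or Old6, and that of PGRP-SB1 without Young1 or any of the old samples. With values under log2 4 set to 4, the call of PGRP-SB1 was lost as well (FDR 0.183, limma).

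The list of ubiquitin enzymes holds the enzymes that build chains on Imd (Diap2, ben, Uev1A and eff), 3 subunits of a ligase that acts on Relish (SkpA, slmb and Cul1) and POSH, a ligase that acts on Tak1. None of these 8 was called in limma or in the methods' t-test. At an unadjusted p under 0.05, 3 were higher and none lower, and the log2 differences ran from -0.16 to 0.20. Diap2, the ligase that marks Imd, was at 12.88, 12.95 and 12.91 in the old samples and at 12.74, 12.74 and 12.88 in the young samples. Of 9 genes listed as inhibitors or deubiquitinases, 1 was called, the transglutaminase gene Tg, which fell by 1.91, with 2.83 to 3.18 in the old samples against 4.40 to 5.41 in the young samples. All old values of Tg were in the range without signal, and its call was lost with values under log2 4 set to 4 (FDR 0.209, limma). At an FDR under 0.05, trbd, faf and RYBP changed as well. They were chosen after their values were seen. The deubiquitinase genes trbd and faf fell by 0.33 and 0.67, and RYBP rose by 0.25. The probe sets of faf differed in their call: all 3 had an FDR under 0.05 and fell, by 0.67, 0.93 and 1.01, and only the dimmest passed the fold criterion. The gene casp, whose product caspar holds back Relish, had a log2 difference of -0.05 and met neither rule.

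Among 12 nuclear partners and co-regulators of Relish, 3 were called higher and 1 lower, against 6.41% of all probe sets called in either direction. Charon, listed in the table as CG5118, encodes a nuclear ankyrin-repeat protein that binds Relish. It was at 12.37, 12.41 and 12.38 in Old4, Old5 and Old6, against 10.85, 10.59 and 10.83 in Young1, Young2 and Young3, a rise of 1.63 (FDR 0.00127, limma). This was more than for any of the 10 signalling genes but pirk, and its samples agreed within 0.27 in both groups. The POU factor gene nub, known as a regulator of immune genes in the gut, rose by 3.98 in 1 of its 3 probe sets, and the other 2 were near 2 on the log2 scale in all samples. GATAe, a GATA factor of the midgut, rose by 1.17, a call that was lost without Young2. The GATA factor gene srp, which acts with Relish in the fat body, fell by 2.03, with 10.11, 9.64 and 9.46 in the old samples against 11.93, 11.85 and 11.53 in the young samples. None of the 5 genes of the Brahma chromatin complex in the list was called: Bap60 had a log2 difference of 0.24 (FDR 0.354, limma), and Bap55, brm, mor and osa lay between -0.12 and 0.02.

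Downstream, 7 of 13 antibacterial peptide genes were called, all higher, with a median log2 difference of 4.05. Over all probe sets 3.45% were called as higher, and 6.83% of those with a value of log2 6 or more. The 4 with the largest measured log2 differences were AttD (9.04), CecC (7.58), edin (7.10) and CecB (6.67), but these sizes and their order rest on young values in the range without signal. AttD was at 11.05, 11.42 and 11.27 in the old samples against 2.17, 2.13 and 2.33 in the young samples, and CecB at 8.89, 9.52 and 8.77 against 1.73, 1.71 and 3.71. With all values under log2 4 set to 4, AttD was at least 152-fold and CecB at least 33.3-fold higher in old samples. For edin, at 10.77, 9.30 and 10.81 in old samples against 2.29, 2.29 and 4.99 in young samples, the same floor gave a log2 difference of 5.96. Without Young3 the measured difference was 8.002 for edin and 7.33 for CecB. CecC was at 12.97, 13.24 and 13.29 in the old samples against 4.02, 2.37 and 10.37 in Young1, Young2 and Young3. Its difference was 9.97 without Young3 and 5.97 without Young2, and its call held with Young3 left out but with no other sample left out. With values under log2 4 set to 4, the difference of CecC was 7.04 and its call was lost (FDR 0.177, limma). Of the genes not called, Dpt was near 2.4 in all samples and carries no level. AttA (3.99), AttC (5.65), DptB (4.79), Mtk (3.47) and the probe set shared by AttA and AttB (4.05) were higher in every old than in any young sample. They were not called (FDR 0.163, 0.308, 0.325, 0.230 and 0.197, limma), and spanned 4.98 to 8.82 among the young samples. The median of 4.05 is the value of that shared probe set. The JNK branch, which Tak1 also feeds, and the Toll pathway, the other NF-κB route of the fly, had no called gene in limma or in the methods' t-test. In the JNK branch all 6 genes were higher at an unadjusted p under 0.05, and 5 had an FDR under 0.05, with a median log2 difference of 0.48 and Jra highest at 0.91. In the Toll list 6 of 8 were higher at that p and 2, tub (0.37) and pll (0.62), had an FDR under 0.05, with a median of 0.23. The 10 Imd genes had 6 higher at that p, 4 at that FDR and a median of 0.36. Over all probe sets 13.6% were higher at that p, and 27.8% of those with a value of log2 6 or more. Whether these lists differ was not tested. Jra, tub and pll were named after their values were seen.

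**Figure D4:**
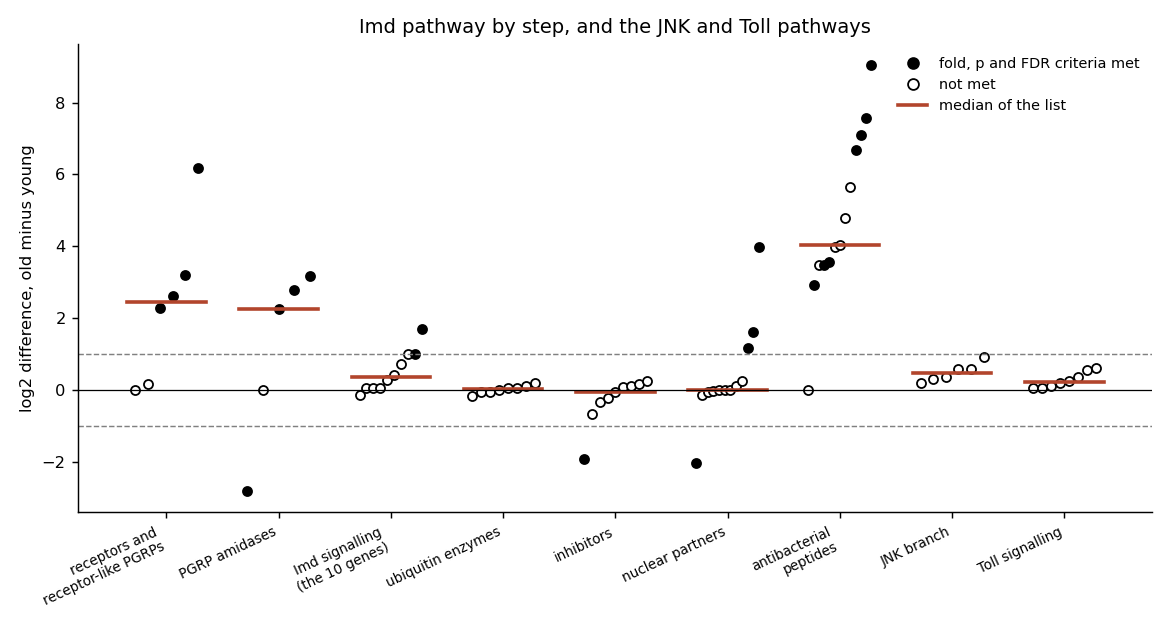
Log2 difference, old minus young, of each gene of the Imd pathway by step and of the JNK and Toll pathways, with filled points for genes that met the fold, p and FDR criteria and a bar at the median of each list; dashed lines mark a 2-fold difference. Medians were 2.46 for receptors and 4.05 for antibacterial peptides, against 0.36 for the 10 signalling genes, 0.04 for ubiquitin enzymes, 0.48 for the JNK branch and 0.23 for Toll signalling.

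Genes listed as markers of tissues that express the pathway moved between the groups as well. In a list of 7 fat body genes, 2 were called lower (Fbp1 and Fbp2) and none higher, and all 7 had a negative log2 difference. All old values of Fbp1 and Fbp2 were in the range without signal, at 1.98 to 2.77. The gene apolpp had a log2 difference of -0.08 (FDR 0.957, limma). The sum of the linear values was 61346 to 68634 in old and 83739 to 99673 in young samples, with no marker under log2 4 throughout. Most of this sum comes from apolpp, Yp1, Yp2 and Yp3, each at 13.31 or more in every sample. Whether the listed genes are also expressed in other tissues, or remain from earlier stages, was not checked. They therefore show no change of the adult fat body as such. Of 8 midgut genes, 2 were called higher (mex1 and esg) and 2 lower (epsilonTry and a probe set that deltaTry shares with other genes), with sums of 23602 to 29660 in old and 36976 to 45466 in young samples. The median of these genes ranged over 3.13 among old and 0.37 among young samples. Jon99Ci was at 11.73, 5.85 and 2.49 in Old4, Old5 and Old6, and epsilonTry at 10.23, 5.71 and 5.81. By contrast, mex1 and Mal-A1 ranged over 0.31 and 0.08 among old samples. Jon99Ci (-6.69) and Jon25Bi (-2.54) were lower in old samples but not called (FDR 0.187 and 0.16, limma). Of 7 hemocyte genes, 1 was called lower (Pxn) and none higher, with sums of 7802 to 8267 in old and 5776 to 7343 in young samples, and NimC1, He and eater were under log2 4 in all samples. Most of this sum is crq, at 12.39 to 12.90, while Hml, the next brightest, reached 8.51. The log2 difference of crq was 0.22 and not called (FDR 0.394, limma), so the sum moved opposite to Pxn and follows mainly 1 gene. Of 6 ovary genes, 1 was called lower (Vm34Ca), with sums of 37044 to 63839 in old and 94787 to 97690 in young samples, and that call was lost with any sample but Old4 left out. It was lost too with values under log2 4 set to 4 (FDR 0.196, limma). As in some of the midgut genes, the old samples stood far apart in the eggshell genes. Cp36 was at 13.43, 12.01 and 1.91 in Old4, Old5 and Old6, against 14.31 to 14.39 in the young samples. Cp38 was at 12.47, 10.04 and 1.66 in the same old samples, against 13.72 to 13.85 in the young samples, and Vm26Aa at 11.68, 8.82 and 6.06, against 13.12 to 13.25. Their log2 differences of -5.24, -5.74 and -4.34 were larger than that of Vm34Ca (-2.66) but not called (FDR 0.501, 0.370 and 0.158, limma). Without Old6, the fold differences were 1.98 for key, 2.003 for Rel, 1.56 for ird5, 1.38 for Fadd and 3.79 for pirk, with FDRs of 0.024, 0.0248, 0.151, 0.0734 and 0.129 in limma. The call of epsilonTry was lost without Young2, Young3, Old5 or Old6. The part of these shifts in the differences of key, Rel, ird5, Fadd and pirk was not tested.

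The genes whose values over the 6 samples were most like those of key were pst, Jra and CG31898, each with a Pearson r of 0.999 with key, among 1770 genes that spanned at least 1 log2 unit. For pirk they were Snap24 (0.992), Prat2 (0.990) and CG31176 (0.981). Such values are set mostly by the split between the age groups: 272 of the 1770 genes had r over 0.95 with key, and 43 with pirk.

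Since key and Rel lie on either side of a 2-fold difference, their calls changed with the setting, and their differences hardly did. Over the 17 settings run, the fold difference of key was 1.86 to 2.09 and that of Rel 1.89 to 2.18, and the FDR of both was under 0.05 in every setting, with 0.024 and 0.0248 as the highest. The fold difference of pirk was 2.63 to 4.25 and its FDR 0.00803 to 0.219. For ird5 the FDR was 0.00766 to 0.151 and for Fadd 0.00421 to 0.116, so their places under 0.05 depend on the setting.

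**Figure D5:**
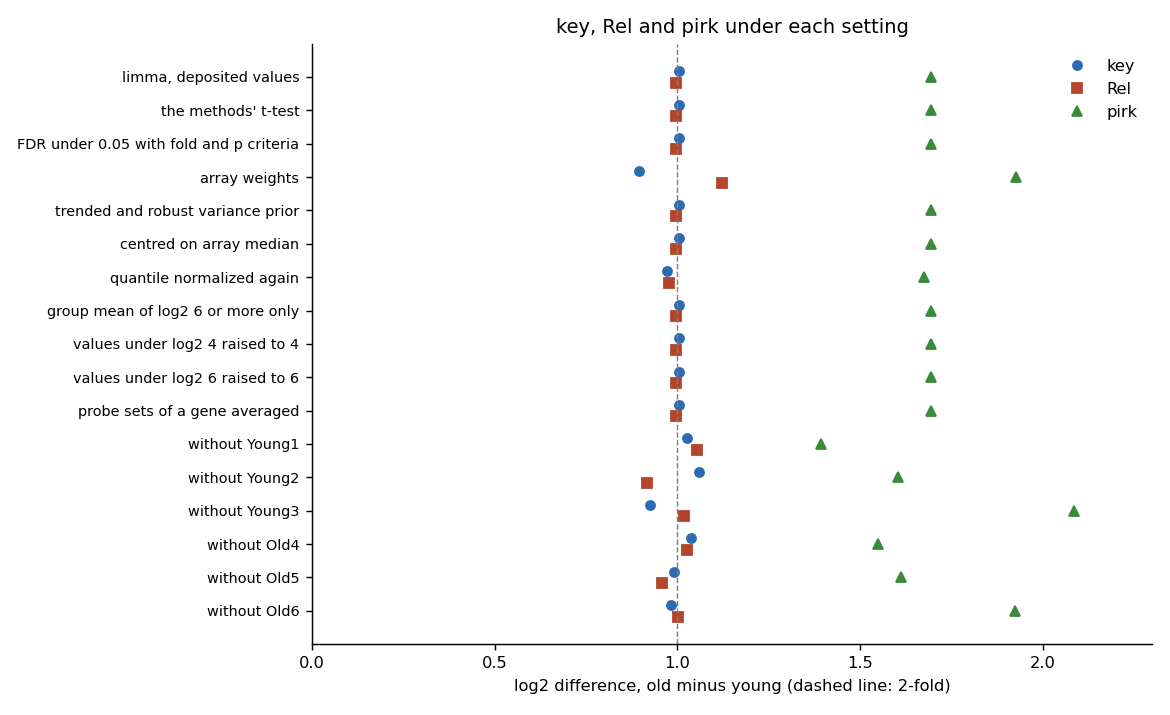
Log2 difference, old minus young, of key, Rel and pirk in each of the 17 settings, the deposited values at the top and the samples left out in turn at the bottom; the dashed line marks a 2-fold difference. Values of key and Rel stay close to the line on both sides of it, while pirk stays above it in every setting.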

How the data were processed

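RNA of whole flies, 3 samples of the old and 3 of the young age group, was hybridized to 1 Affymetrix array per sample. According to the methods, the authors imported the scans into Partek Genomics Suite (version 6.5 per the labels) and normalized them with GCRMA, and the deposited values are on the log2 scale. The scans were not analysed here, so neither the background correction nor GCRMA itself could be changed, and the normalization to a common distribution hides any shift shared by all genes. The number of arrays limits the precision. The table holds 18952 probe sets. Without its 183 control probe sets, 18769 were fitted in R 4.3.3 with limma 3.58.1, with age group as the only term, and p was adjusted by the Benjamini-Hochberg method over all of them. The 3 criteria for a DEG are those of the methods, which name SAM and a t-test. The t-test, with equal variances assumed, was run as an alternative, and SAM was not run. The fit was tested on simulated data, with shifts larger than those of key and Rel planted in bright probe sets of small spread. That test does not bear on differences near the fold criterion or on spreads as wide as that of pirk.

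The labels give 3 biological replicates per group, and the table's old columns carry other numbers than the labels. Where a gene has more than 1 probe set, the one with the highest mean among those labelled with that gene alone is given. All 10 genes are named with their values. From the other pathway lists, up to 4 called genes with the largest difference and genes whose probe sets differ in their call are named. Other genes are said to be chosen after their values were seen or are given as examples without a call. Of the tissue marker lists, that of the head is not described above. Of its 6 genes, 1 was called, Rh3, which was higher in old samples (1.21, FDR 0.0350, limma). For each called gene, the 3 genes most like it are named. The members and the 14 other lists were chosen with earlier results of these data known. CecA1, CecA2 and vas were not analysed here. No sequences are printed.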

Additional observations from a re-analysis of the deposited data

How the results depend on the processing

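The alternatives were the methods' t-test, a stricter FDR of 0.05, weights for arrays, a trended prior, median centring, a second quantile normalization, a filter and 2 floors on dim values, averaged probe sets and each sample left out in turn. Of the 10 genes, 2 met the 3 criteria, and 1 did at an FDR under 0.05, after quantile normalization again, and with a floor at log2 4 or at log2 6 (1 each). With a sample left out the count was 0 to 3, with 0 without Old5, where 6 genes still had an unadjusted p under 0.05 in limma. The 4 genes at an FDR under 0.05 became 2 in the methods' t-test and 2 with either floor, 6 with array weights and 6 with the filter (Tab2 and pirk added), 5 with the trended prior (Tab2 added), and 2 to 5 with a sample left out. In each of these settings key and Rel were among them. Floors change no value of these genes other than imd, but they change the spread shared across probe sets. The cause of the other shifts was not tested. Over all probe sets, 1203 became 792 with the floor at log2 6, and 993 to 1157 with a sample left out. The 20 called probe sets of the other pathway lists became 15 to 25 in all settings. Dredd turned to -0.0135 without Young2, with 0.15 as its highest value with a sample left out. The other 9 genes kept their sign in every setting that gave a value. For imd, which is too dim to read, that sign has no meaning: its difference was -7.44e-06 with array weights. No value of imd was given with a floor or in the filter. No paired analysis was possible because the old columns carry numbers that differ from those of the labels.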
